A study of Mus musculus with 4 samples.

Results

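The signal of 36 genes of the skeletal muscle sarcomere and of muscle excitation was read from arrays of mouse cochlear RNA. The list was drawn up as a possible gauge of middle ear and surrounding muscle carried into an RNA pool, and whether it can serve as one depends on which of its genes are detected. The members were taken by gene name out of 30028 gene names on the array, with no threshold on their values but with earlier results of these data known. The scanner software marks a spot as well above background when its signal is clearly over the local background, and for each gene the brightest probe so marked on any array was kept. All 36 genes had a probe, and 30 were measured in this sense.

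The study compared 4 groups of B6J mice at 5 weeks of age, with 1 array each and all arrays on 1 slide. The mice were wild-type or *Prestin*-*hDTR*, and each genotype was either left untreated or given diphtheria toxin (DT). *Prestin*-*hDTR* mice, labelled OHC-TRECK, are a single transgenic line that carries a human DT receptor under the promoter of the prestin gene *Slc26a5*, which is active in the outer hair cells (OHCs) of the cochlea. The mice lacking the transgene shared its background strain. DT was given at 50 μg/kg, 7 days before dissection, and the untreated groups received none. According to the labels, each pool mixed RNA of both sexes, with 4 females and 4 males. The methods give their n as cochleae, so the number of mice behind each pool is not certain.

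Since every group was a single array, no difference between groups could be set against the spread of replicates, and no test was made. The only error that could be measured was that between repeated spots. For the 299 to 311 probes spotted more than once, the median SD was 0.0607 to 0.0713 (log2) within an array, and it holds nothing of the spread between mice or labellings. Each array held 39429 probes, and 62.2% to 70.6% of them were well above background. No spot was saturated. Values are log2 of the background-subtracted intensity divided by the 75th percentile of the array, so that 0 is the signal of that percentile. Levels of different genes are not set against each other, because the signal also depends on the probe. With whole cochleae, fewer cells of a type and less RNA per cell cannot be told apart.

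A sarcomere, the repeating contractile unit of striated muscle, is built of thick filaments of myosin and thin filaments of actin. Troponin and tropomyosin on the thin filament make contraction depend on calcium, titin and nebulin set the spacing and length of the filaments, and the Z disc anchors them. A nerve impulse opens calcium release from the sarcoplasmic reticulum at the triad, through the voltage sensor encoded by *Cacna1s* and the release channel encoded by *Ryr1*. Fast and slow muscle fibres use different isoforms of many of these proteins. The cochlea itself contains no skeletal muscle, but the stapedius and tensor tympani muscles of the middle ear lie close to it.

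The probes on which the detection of adult muscle turned are shown first. The deposited coordinates of the *Ckm*, *Ryr1*, *Actn3* and *Tnni1* probes span more of the genome than the 60 bases of the probe, so each crosses at least 1 intron and reads spliced RNA. They lie at chr7:20002222-20004829 on the plus strand (*Ckm*), chr7:29788789-29789487 on the minus strand (*Ryr1*), chr19:4861727-4862212 on the minus strand (*Actn3*) and chr1:137705328-137706203 on the plus strand (*Tnni1*) of mm9. The *Des* probe at chr1:75363404-75363629 on the plus strand is of the same kind, and is shown because it was spotted 10 times on each array. Exons and UTRs were not annotated here, as no annotation of mm9 was used.
Ckm: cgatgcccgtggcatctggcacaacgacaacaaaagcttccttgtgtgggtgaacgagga
Ryr1: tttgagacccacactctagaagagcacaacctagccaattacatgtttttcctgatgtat
Actn3: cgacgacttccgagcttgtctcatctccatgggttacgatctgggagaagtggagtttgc
Tnni1: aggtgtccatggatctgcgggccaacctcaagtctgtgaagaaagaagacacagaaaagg
Des: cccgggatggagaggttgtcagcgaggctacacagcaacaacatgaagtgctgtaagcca

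For 6 members whose differences between arrays are described at length, the first 30 bases of the probe are given to identify it, and the *Neb* probe is shown with its values. In mm9, the probes lie at chr1:66970948-66971007 on the minus strand (*Myl1*), chr7:4456265-4456324 on the minus strand (*Tnnt1*), chr10:87981078-87981137 on the minus strand (*Mybpc1*), chr5:122556732-122556791 on the plus strand (*Myl2*), chr9:110672238-110672297 on the plus strand (*Myl3*) and chr14:21468483-21468542 on the minus strand (*Myoz1*). The myosin, troponin and actinin families have similar members, and the longest run of bases that any 2 of 35 member probes shared was 13, between *Atp2a1* and *Des*.
Myl1: ttataagccttgagttttcatgacaaacat
Tnnt1: caggagccactggagcgtgtcccatctgta
Mybpc1: ccaggcccccaagtgtggtcactttctttc
Myl2: ataagaatttggtccacatcattacccacg
Myl3: acctgtgcttgcctttctgtatccaccctg
Myoz1: atgctggacaggatgccccaactgttaatc

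Several of the genes that define adult skeletal fibres were not well above background on any array. These 6 genes were *Ckm*, muscle creatine kinase, *Myh1* and *Myh2*, fast myosin heavy chains, *Ryr1*, the calcium release channel, *Actn3*, the actinin of fast fibres, and *Tnni1*, the slow troponin I. *Ckm* had log2 signals of -8.10, -7.67, -8.59 and -7.67 on the arrays in the order used throughout, which is wild-type mice without and then with DT, followed by *Prestin*-*hDTR* mice without and then with DT, and *Ryr1* had -7.82, -7.38, -8.29 and -7.43. In *Ckm*, these were intensities of 9.98, 15.5, 7.83 and 15.4. The lowest signal among probes well above background was -5.93, -5.48, -6.39 and -5.44, so the signals of *Ckm* and *Ryr1* lay below it on every array. No fold is therefore given for these 6 genes, whose printed signals show only that they were low, and none of them was shown to be present in any pool. The 30 other members are named here as genes, and their signal is not read as an amount of muscle.

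Of the other members, 20 were well above background on all 4 arrays, 2 on 3 arrays (*Casq1* and *Trdn*), 4 on 2 arrays (*Myh4*, *Myh8*, *Ttn* and *Mb*) and 4 on a single array (*Myh7*, *Tnnc1*, *Tnnt3* and *Myoz1*). The array that measured the last 4 was that of untreated *Prestin*-*hDTR* mice in each case. By array, 26, 20, 30 and 22 of the 36 members were well above background, beside 67.0%, 62.5%, 70.6% and 62.2% of all probes. The members and all probes thus had their highest number on the same array, that with the lowest detection limit, and the part of the limit in the members' counts was not tested. *Myh4*, *Myh8*, *Ttn* and *Mb* were measured on both untreated arrays and on neither array of DT-treated mice, which had the higher detection limits.

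**Figure D1:**
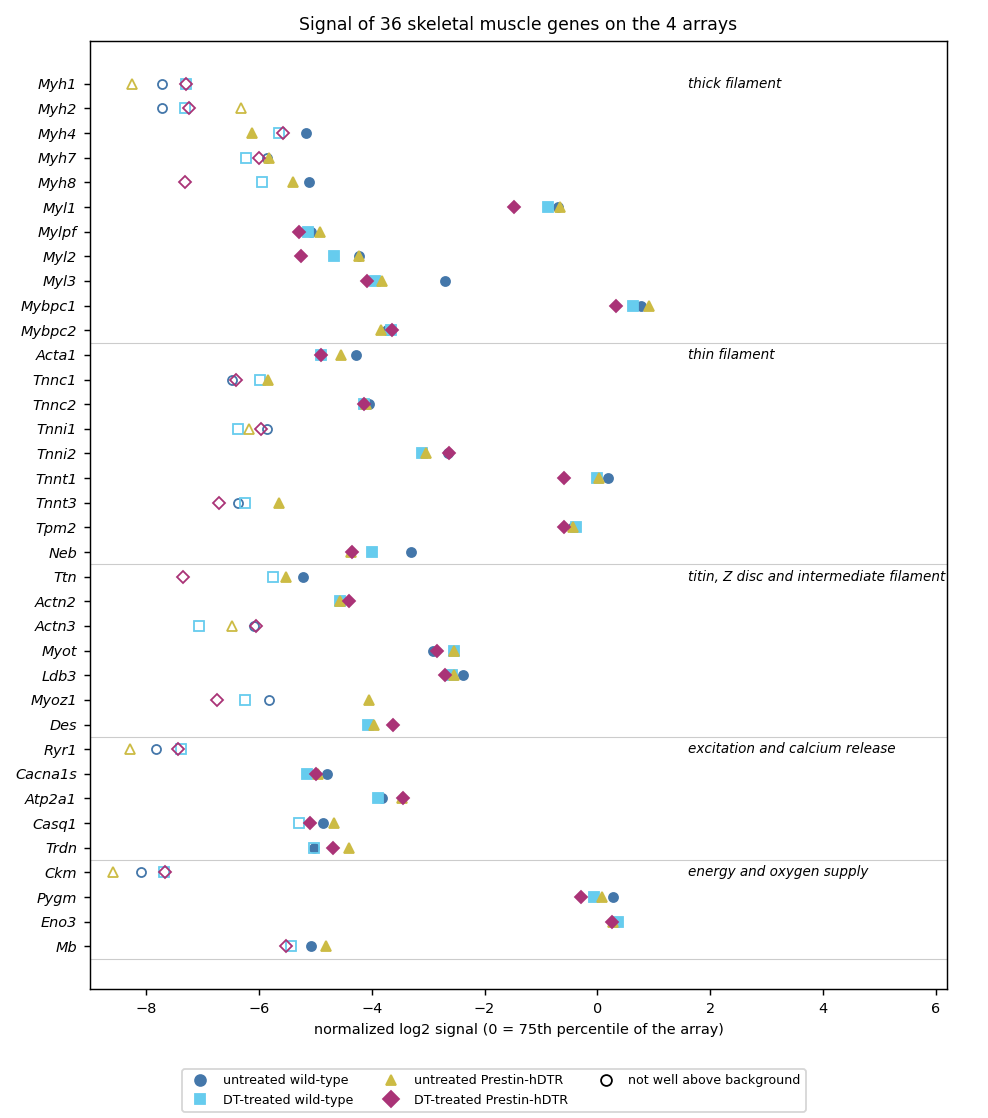
Signal of each of the 36 genes on the 4 arrays, as log2 of the intensity over the 75th percentile of the array (x axis), with genes in rows by role. Filled symbols are well above background and open symbols are not: *Ckm*, *Myh1*, *Myh2*, *Ryr1*, *Actn3* and *Tnni1* have open symbols throughout, and 20 genes have 4 filled ones.

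The normalized signals of the 20 members measured on all 4 arrays were summed on the linear scale, where 1 is the 75th percentile, and gave 7.90, 7.13, 7.61 and 5.99. This sum was lowest in DT-treated *Prestin*-*hDTR* mice and highest in untreated wild-type mice. The 6 brightest members (*Mybpc1*, *Eno3*, *Pygm*, *Tnnt1*, *Tpm2* and *Myl1*) gave 6.68, 6.12, 6.54 and 4.95. The other 24 of the 30 measured members gave 1.46, 1.21, 1.37 and 1.21, with the same sum on both DT-treated arrays. A sum gives more weight to bright probes, so the genes are also taken 1 by 1.

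A comparison of 2 arrays took the members well above background on at least 1 of them. A signal that was not well above background was raised to the lowest signal of probes that were, unless its own was higher, and the fold is then a lower bound. A change of 2-fold or more was called, as in the screen of the study's methods, and the calls carry no test. A member measured on only 1 of both arrays could only be counted as higher there or as having no direction. Directions and medians are therefore given over the members well above background on both arrays, and the 2-fold counts are given with and without the others.

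In untreated *Prestin*-*hDTR* against untreated wild-type mice, 11 of 26 members were higher and 15 lower, with a median log2 ratio of -0.07 beside -0.01 for all probes measured on both arrays. None of the 26 was higher by 2-fold, and *Myoz1* was so as a lower bound, where 1.01% of all probes were. *Myl3* and *Neb* were lower by 2-fold, 2 members where 2.32% of all probes were. In DT-treated against untreated wild-type mice, 4 of 20 members were higher and 16 lower, with a median of -0.15 beside -0.03. None was higher by 2-fold, where 1.46% of all probes were, and *Myl3* alone was lower, where 1.09% were.

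The array of DT-treated *Prestin*-*hDTR* mice was compared with each of the others, and these comparisons share that array. Against untreated *Prestin*-*hDTR* mice, 6 of 22 members were higher and 16 lower, with a median of -0.21 beside 0.00. A further 5 (*Myh4*, *Myh7*, *Tnnc1*, *Tnnt3* and *Ttn*) had no direction, because the detection limit of the DT-treated array lay above their signal on the other. None was higher by 2-fold, where 2.49% of all probes were. *Myl2* was lower by 2-fold and *Myoz1* was so as a lower bound, where 1.35% of all probes were. Against DT-treated wild-type mice, 7 of 20 members were higher and 13 lower with a median of -0.13 beside 0.01, and none passed 2-fold in either direction, where 1.41% of all probes were higher and 1.83% lower. Against untreated wild-type mice, 7 of 22 were higher and 15 lower, with a median of -0.20 beside -0.02. None was higher by 2-fold, where 1.96% of all probes were, and 3 were lower (*Myl2*, *Myl3* and *Neb*), where 1.95% were.

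**Figure D2:**
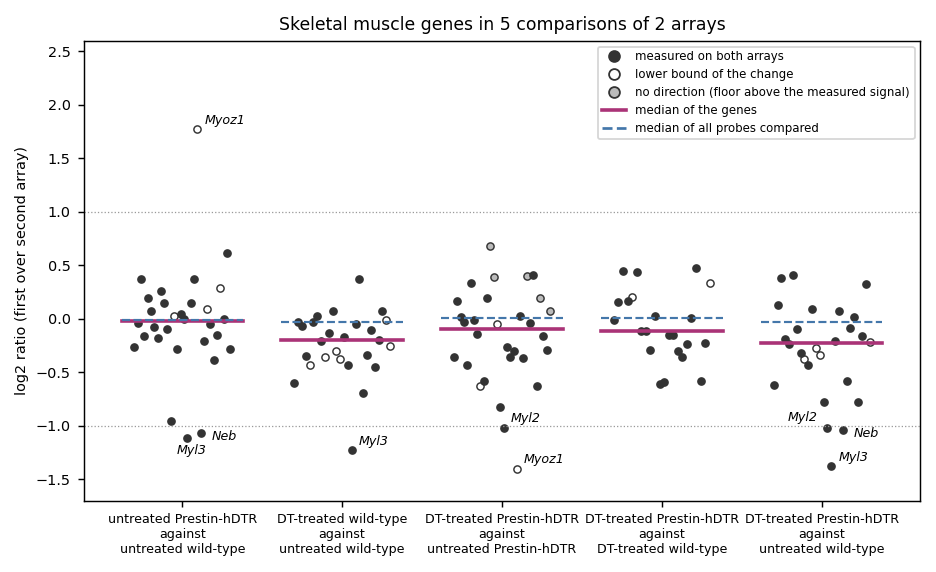
Log2 ratio of each measured member (y axis, dotted lines at 2-fold) in the 5 comparisons of 2 arrays (x axis), with the median of all members plotted (solid line) and of all probes compared (dashed line). Most members lie within 2-fold, and the named ones are those beyond it; open circles are lower bounds and grey circles have no direction.

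Among the thick filament genes, 9 of 11 were measured. *Myl1*, a light chain of fast muscle myosin, had log2 signals of -0.71, -0.87, -0.66 and -1.48. The first 3 arrays lay within 0.22 of each other, and the array of DT-treated *Prestin*-*hDTR* mice was 1.77-fold lower than that of untreated *Prestin*-*hDTR* mice, 1.52-fold lower than that of DT-treated wild-type mice and 1.71-fold lower than that of untreated wild-type mice. A further *Myl1* probe, not well above background on the last array, gave a log2 ratio of at most -0.96 between the DT-treated and untreated *Prestin*-*hDTR* arrays, where the brighter probe gave -0.82.

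*Myl2*, the regulatory light chain of slow and ventricular myosin, had -4.23, -4.66, -4.22 and -5.25. It was lowest in DT-treated *Prestin*-*hDTR* mice, 2.03-fold below each untreated array and 1.5-fold below the DT-treated wild-type array. The signal of DT-treated wild-type mice lay between these. Both 2-fold calls were lost under quantile normalization, and the smallest change under any alternative was -0.64 against untreated *Prestin*-*hDTR* and -0.55 against untreated wild-type mice. *Mybpc1*, the myosin binding protein C of slow fibres, had 0.76, 0.63, 0.91 and 0.33, and was 1.49-fold lower in DT-treated than in untreated *Prestin*-*hDTR* mice. Its other measured probe was lowest on the same array, with a log2 ratio of -0.43 where the brighter gave -0.58.

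*Myl3*, the essential light chain of slow and ventricular myosin, had a different order, with -2.71, -3.93, -3.82 and -4.08. It stood high in untreated wild-type mice, while the other 3 arrays were close together. The untreated wild-type signal was 2.16-fold above that of untreated *Prestin*-*hDTR* mice, 2.34-fold above that of DT-treated wild-type mice and 2.6-fold above that of DT-treated *Prestin*-*hDTR* mice. All *Myl3* calls rest on that array and on 1 probe, and the first of them (a log2 ratio of -1.11) was -0.91 by another background correction (normexp, with quantile normalization). *Mylpf*, the regulatory light chain of fast myosin, had -5.08, -5.13, -4.93 and -5.29, and *Mybpc2*, the myosin binding protein C of fast fibres, had -3.73, -3.66, -3.83 and -3.64. Neither differed by as much as 2-fold between any arrays. The neonatal heavy chain gene *Myh8* had -5.11 and -5.39 on the untreated arrays and *Myh4*, a fast heavy chain gene, -5.17 and -6.13, and both were not well above background on the DT-treated ones. *Myh7*, the slow heavy chain gene, was well above background on the untreated *Prestin*-*hDTR* array alone, at -5.83. Its signal on the untreated wild-type array was nearly the same, at -5.85.

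Among the thin filament genes, 8 of 9 were measured. *Tnnt1*, the slow troponin T, had 0.19, -0.01, 0.04 and -0.59. It was lowest in DT-treated *Prestin*-*hDTR* mice, by 1.55-fold against untreated *Prestin*-*hDTR* mice, 1.5-fold against DT-treated wild-type mice and 1.72-fold against untreated wild-type mice. A second *Tnnt1* probe gave a log2 ratio of -0.62 in the first of these comparisons, where the brighter gave -0.63. *Tpm2*, a tropomyosin, had -0.44, -0.37, -0.44 and -0.60, lowest on the same array but by no more than 1.17-fold, and its other probe gave a ratio of -0.21 between the *Prestin*-*hDTR* arrays beside -0.16.

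*Acta1*, skeletal muscle actin, had -4.29, -4.89, -4.55 and -4.91. Both DT-treated arrays were low and nearly equal, 1.52-fold and 1.54-fold below untreated wild-type mice. *Tnni2*, the fast troponin I, had -2.65, -3.10, -3.04 and -2.63, so that the arrays of untreated wild-type mice and of *Prestin*-*hDTR* mice with DT had the closest signals and the other pair was lower. *Tnnc2*, the fast troponin C, had -4.04, -4.15, -4.10 and -4.13, a range of 0.10.

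*Neb*, encoding nebulin, had -3.31, -4.0, -4.37 and -4.35 at its brightest probe. By this probe untreated wild-type mice were 2.09-fold above untreated and 2.06-fold above DT-treated *Prestin*-*hDTR* mice. The other *Neb* probe measured on all arrays had -5.12, -5.00, -5.02 and -5.23, with log2 ratios of 0.09 and -0.12 in these comparisons, and so did not show the change. The calls were also lost by normexp and when scaled to the median of all probes, down to -0.49 and -0.58 under any alternative. The brightest probe lies at chr2:52097549-52097608 and the other at chr2:51992837-51992896, both on mm9, and the *Neb* calls hold for the brightest probe only. That probe is shown in the strand of the transcript, which is the minus strand.
Neb: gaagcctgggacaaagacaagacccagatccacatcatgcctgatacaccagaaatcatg

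The fast and slow partners of the troponins were not detected alike. For troponin T the slow gene *Tnnt1* was measured on 4 arrays and the fast *Tnnt3* on 1, with -5.64 in untreated *Prestin*-*hDTR* mice. For troponin I the fast gene *Tnni2* was measured on 4 arrays and the slow *Tnni1* on none, and for troponin C the fast *Tnnc2* was measured on 4 and the slow *Tnnc1* on 1, with -5.84. The measured troponin subunits thus mixed the fibre types. Of the 7 members listed as slow fibre genes, 6 were measured, and of the 13 listed as fast fibre genes, 10. *Mybpc1* was not on the slow list, though its fast partner *Mybpc2* was on the fast list. In untreated *Prestin*-*hDTR* against untreated wild-type mice, the median log2 ratio was 0.01 for the slow and 0.10 for the fast genes, and in DT-treated against untreated wild-type mice it was -0.395 and -0.135. In DT-treated *Prestin*-*hDTR* mice, the slow genes had medians of -0.446 against untreated *Prestin*-*hDTR*, -0.585 against DT-treated wild-type and -0.90 against untreated wild-type mice, and the fast genes -0.01, 0.02 and -0.15. These medians include lower bounds and genes with no direction, and each rests on 3 to 6 slow and 7 to 10 fast genes. *Mybpc1*, left out of the slow list, had log2 ratios of -0.577, -0.295 and -0.43 in these comparisons of DT-treated *Prestin*-*hDTR* mice. The slow medians thus depend on which genes are listed. The difference between these lists was not tested.

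Among the genes of titin, the Z disc and the intermediate filament, 6 of 7 were measured. *Des*, encoding the intermediate filament protein desmin, had a mean of -4.04 ± 0.0961, -4.07 ± 0.0758, -3.97 ± 0.0899 and -3.64 ± 0.147 (SD, n = 10 spots on each array). It was highest in DT-treated *Prestin*-*hDTR* mice, opposite to *Myl1*, *Tnnt1* and *Mybpc1*, with a 1.26-fold difference from untreated *Prestin*-*hDTR* mice and 1.36-fold from DT-treated wild-type mice. The difference was larger than the SD between spots of 1 array, which are no replicates of the group. *Actn2*, the alpha-actinin of all fibre types, had -4.53, -4.56, -4.57 and -4.40, also highest on that array. *Ldb3*, which binds actinin at the Z disc, had -2.38, -2.58, -2.55 and -2.70 at its brightest probe, highest in untreated wild-type mice. Its other probe had -2.93, -3.0, -2.82 and -3.42, highest in untreated *Prestin*-*hDTR* mice and lowest, with the wider gap, in those given DT. *Myot*, which encodes the Z disc protein myotilin, had -2.91, -2.54, -2.54 and -2.84.

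*Myoz1*, encoding a Z disc protein that binds calcineurin, was well above background in untreated *Prestin*-*hDTR* mice only, at -4.04, with -5.81, -6.25 and -6.74 on the other arrays in order. Its intensities were 48.5, 41.6, 183 and 29.2 in the order of the arrays. The untreated *Prestin*-*hDTR* array was at least 3.42-fold above untreated wild-type and at least 2.64-fold above DT-treated *Prestin*-*hDTR* mice. The direction of both follows from its being measured on that array alone. Both values rest on 1 probe and 1 array, and this gene has no further probe. Over the 8 alternatives that could measure it, the log2 ratios lay between 1.02 and 1.94 in the first comparison and between -2.7 and -0.90 in the second, with the last by normexp under 2-fold. *Ttn*, encoding titin, was measured on the untreated arrays alone, at -5.23 and -5.51, and 3 further *Ttn* probes were not well above background on any array.

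Among the genes of excitation and calcium release, 4 of 5 were measured, and none was 2-fold apart in any comparison. *Cacna1s*, the voltage sensor of the triad, had -4.80, -5.15, -4.96 and -4.99. *Atp2a1*, the calcium pump of fast fibres, had -3.83, -3.89, -3.46 and -3.44, with both *Prestin*-*hDTR* arrays above both wild-type arrays by 1.29-fold to 1.36-fold. *Trdn*, encoding triadin at the calcium release site, had -5.02 in untreated wild-type mice, and -4.40 without and -4.69 with DT in *Prestin*-*hDTR* mice. Its other measured probe had -4.90, -4.75 and -4.42 there, so that the log2 ratio between the *Prestin*-*hDTR* arrays was 0.33 where the brighter probe gave -0.29. *Casq1*, encoding the calcium store protein calsequestrin, had -4.86, -4.66 and -5.09 on the same 3 arrays. In DT-treated wild-type mice neither was marked well above background. The brighter *Trdn* probe had -5.03 there, close to its signal in untreated wild-type mice, and *Casq1* had -5.29.

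Of the genes of energy and oxygen supply, 3 of 4 were measured. *Pygm*, the muscle glycogen phosphorylase, had 0.28, -0.06, 0.07 and -0.30, and was lowest in DT-treated *Prestin*-*hDTR* mice, 1.49-fold below untreated wild-type mice. *Eno3*, the muscle enolase, had 0.35, 0.37, 0.27 and 0.26, a range of 0.12. *Mb*, encoding myoglobin, was measured on the untreated arrays at -5.07 and -4.81, and was not well above background on either array of DT-treated mice.

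For the 20 members measured on all 4 arrays, each array was set against the other 3. DT-treated *Prestin*-*hDTR* mice lay below the other arrays by more than the range of these for 5 members (*Myl1*, *Tnnt1*, *Mybpc1*, *Myl2* and *Tpm2*), beside 14.8% of all probes, and above them by more than that range for 2 (*Des* and *Actn2*), beside 15.4%. The differences from the lowest of the other arrays were -0.61 for *Myl1*, -0.59 for *Myl2*, -0.59 for *Tnnt1*, -0.30 for *Mybpc1* and -0.16 for *Tpm2*. The array of untreated wild-type mice stood above the other 3 in this way for 4 members (*Myl3*, *Neb*, *Ldb3* and *Tnnc2*), beside 7.82% of all probes, though the other probes of *Neb* and *Ldb3* did not show this, and that of untreated *Prestin*-*hDTR* mice stood below for *Mybpc2*, beside 2.66%. No member set the DT-treated wild-type array apart. By order, DT-treated *Prestin*-*hDTR* mice had the lowest signal for 11 of the 20 members, beside 35.2% of all probes, and untreated wild-type mice the highest for 8, beside 31.1%.

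**Figure D3:**
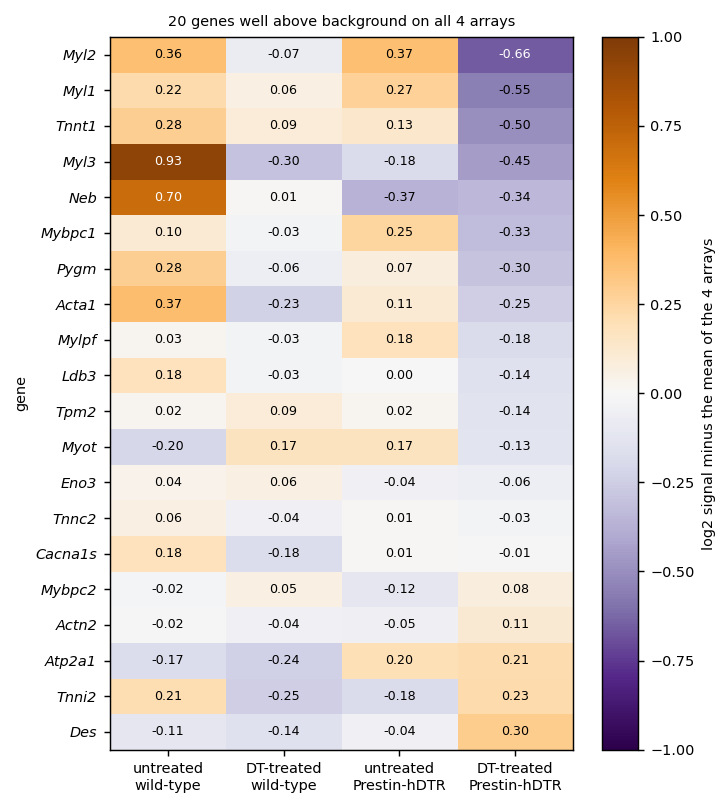
Difference of the log2 signal of each array (columns) from the mean of the 4 arrays (colour and printed value) for the 20 genes measured on all 4, in rows ordered by DT-treated *Prestin*-*hDTR* mice. The rows at the top (*Myl2*, *Myl1*, *Tnnt1*) are lowest on that array and *Des* at the bottom is highest there, while *Myl3* and *Neb* are highest in untreated wild-type mice.

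The wider muscle programme was read from 5 further lists with 76 genes, of which 55 were measured and 45 were so on all 4 arrays. The myogenic transcription factor genes *Myod1*, *Myf5*, *Myf6* and *Myog* were not well above background on any array. Genes well above background on at least 1 of both arrays were compared. A gene measured on a single array could thus only be counted as higher there or as having no direction. In untreated *Prestin*-*hDTR* against untreated wild-type mice, 20 of 55 genes compared were higher and 35 lower, with a median of -0.07. By 2-fold, 1 was higher (*Xirp2*, where 1.01% of all probes were) and 1 lower (*Cav3*, where 2.32% were), and both were measured on the brighter array alone. In DT-treated against untreated wild-type mice, 13 of 54 were higher and 41 lower, with a median of -0.115 and 0 past 2-fold, where 1.46% of all probes were higher and 1.09% lower.

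In DT-treated *Prestin*-*hDTR* against untreated *Prestin*-*hDTR* mice, 21 of 54 were higher, 30 lower and 3 had no direction, with a median of -0.08, and 5 were lower by 2-fold and 0 higher, where 1.35% and 2.49% of all probes were. Against DT-treated wild-type mice, 21 of 49 were higher and 28 lower, with a median of -0.02, and 3 were lower and 1 higher by 2-fold, where 1.83% and 1.41% of all probes were. Against untreated wild-type mice, 19 of 54 were higher and 35 lower, with a median of -0.12, and 6 were lower and 1 higher by 2-fold, where 1.95% and 1.96% of all probes were. Of the genes lower by 2-fold, *Art1* in each comparison and *Myom2* against both untreated arrays were measured on the brighter array alone. Their direction was thus fixed by the filter.

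On the array of *Prestin*-*hDTR* mice with DT, the genes lower by 2-fold were on the lists of the sarcomere, the muscle membrane and energy supply. *Lmod3*, an actin filament nucleator of the thin filament, had -0.97, -1.0, -0.91 and -2.06, with log2 ratios of -1.09, -1.06 and -1.15 against the other arrays in order. *Art1*, an ADP-ribosyltransferase of the muscle membrane, had -3.21, -3.55 and -3.42 on the first 3 arrays and was not well above background on the last, and its ratios were there at most -2.07, -1.73 and -1.86 in that order. Its probe at chr7:109259395-109259454 lies close to that of the OHC gene *Chrna10* at chr7:109259781-109259840. *Chrna10* had ratios of -2.55, -2.82 and -2.93 in the same order. Whether *Chrna10* RNA has a part in the *Art1* signal was not tested. *Pgam2*, the muscle phosphoglycerate mutase, had -2.80, -3.43, -2.98 and -3.99, and passed 2-fold against both untreated arrays.

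*Myom2* and *Myom3*, encoding M band proteins, had -4.14, -4.21, -4.08 and -5.15, and -1.7, -2.04, -1.77 and -2.77. The last *Myom2* value was not well above background, unlike the first 3. *Tcap*, the titin cap gene, had 2.79, 2.59, 2.70 and 1.18, also lowest in DT-treated *Prestin*-*hDTR* mice. Its log2 ratios there were -1.61, -1.42 and -1.53 against the other arrays in order. The paper discusses *Tcap* among the genes lowered after OHC depletion and proposes it as a candidate hearing loss gene. *Fbp2*, the muscle fructose bisphosphatase, went the other way with -3.78, -3.74, -3.63 and -2.67, and was higher by 2-fold against both wild-type arrays.

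Other cell types moved between the pools as well, and their values stand beside those of the members. Of 8 OHC genes, all were lower in DT-treated *Prestin*-*hDTR* mice in each comparison, with medians of -1.49 against untreated *Prestin*-*hDTR* mice and of -1.6 and -1.56 against wild-type mice with and without DT, and summed signals of 26.5, 24.7, 26.5 and 7.04 over the 4 arrays. Only *Ocm*, *Strc*, *Chrna9* and *Chrna10* passed 2-fold, and *Ikzf2* had -0.01 between the *Prestin*-*hDTR* arrays. The array on which *Myl1*, *Tnnt1*, *Mybpc1* and *Myl2* were lowest had the lowest sums of OHC, bone, ciliated epithelium (0.831) and cardiac genes (1.03). The brightest cardiac gene, *Myl4*, had -0.31, -0.45, -0.46 and -0.92. Of 8 cardiac genes compared with untreated *Prestin*-*hDTR* mice, 4 were higher and 3 lower on that array. Its sums of other sarcomere (31.9) and muscle energy genes (23.5) were lowest too, but bright genes weigh most in a sum. Against untreated *Prestin*-*hDTR* mice, *Tcap* of the former had a log2 ratio of -1.53 and *Cox8b*, the brightest energy gene, -0.407. Of 19 other sarcomere genes there, 6 were higher and 11 lower, and of 10 energy genes, 5 were higher and 5 lower. These sums are thus not read as a change of the whole lists. The sums of the DT-treated *Prestin*-*hDTR* array for triad and calcium handling genes (43.1) and myogenic regulators (6.9) were not the lowest. Nor were its neutrophil, erythroid, smooth muscle, tendon, inner hair cell, supporting cell and stria sums. Summed signals of 9 neutrophil genes were 37.6, 58.3, 13.4 and 22.0, those of 9 bone genes 21.8, 27.2, 17.9 and 13.9, and those of 8 erythroid genes 65.5, 84.7, 78.4 and 85.5. All genes of these lists were measured on at least 1 array. The part of these cell types in the values of the members was not tested.

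**Figure D4:**
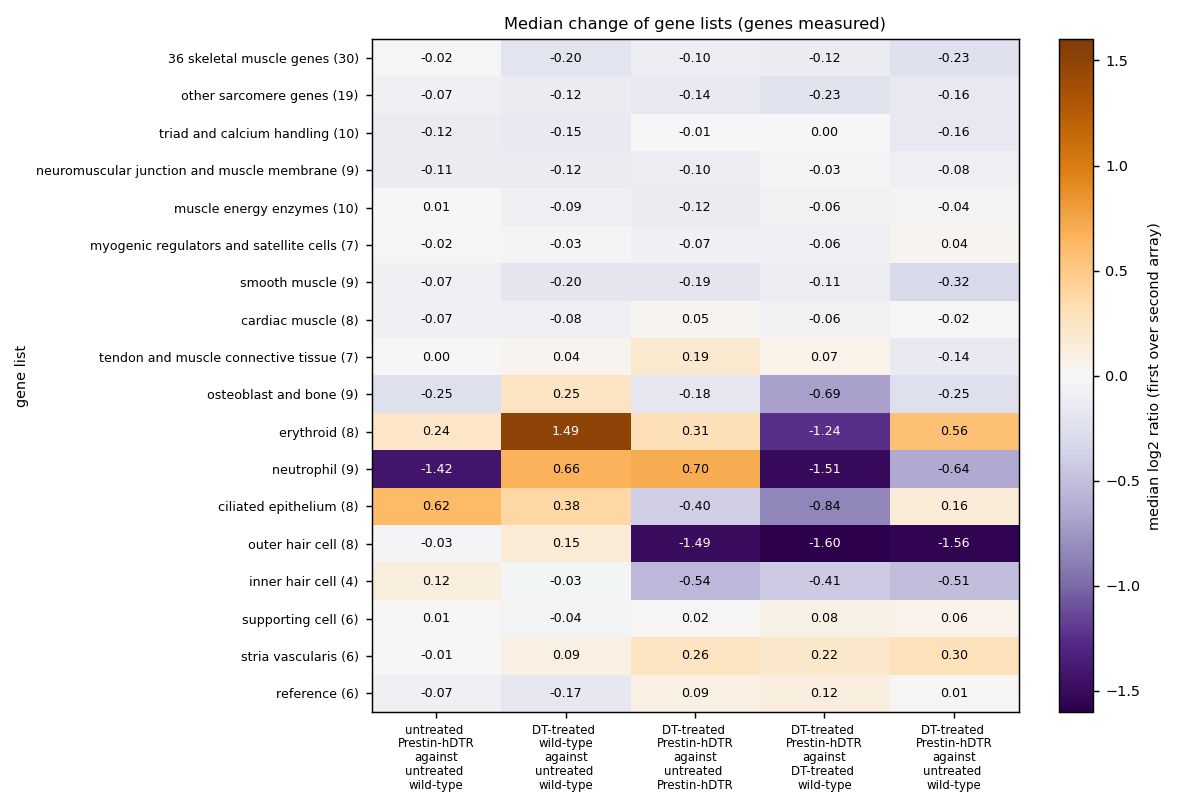
Median log2 ratio (colour and printed value) of the skeletal muscle genes and of 17 other gene lists (rows, with the number of measured genes) in the 5 comparisons (columns). Genes well above background on at least 1 array of a comparison are included, and the medians of the skeletal muscle genes lie between -0.23 and -0.02, while those of the neutrophil, erythroid and OHC lists reach -1.51, 1.49 and -1.6.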

How the data were processed

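Cochlear RNA of each group was hybridised to 1 Agilent array after labelling with Cy3. The authors scanned the arrays and deposited the Feature Extraction (version 11.5.1.1) output. The deposited intensity of each spot is linear, with background subtracted and no scaling between arrays. The mean and background intensities deposited beside it served 1 alternative. The authors' table of processed values held the same intensity as a ratio to 1 constant per array, with no centring on the median of the arrays, and also served as an alternative. It is linear, and its direction is that of the intensity.

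Control spots (1377 per array) and 149 to 228 outlier spots were left out, spots of a probe were averaged, a flag held when it did for more than 0.5 of the spots, and values were scaled to each array's 75th percentile (2728 to 3162). With 1 array per group, 5 comparisons were described by medians and 2-fold counts; precision is limited by the number of arrays. The members and the gene lists were chosen with earlier results of these data known. The text names all members, the fast and slow partners of a family, *Tcap*, and genes of other lists that passed 2-fold. The medians over members measured on both arrays were chosen after seeing the data, and the myogenic regulators and summed signals were added after their values were seen. The steps were tested on simulated data. Coordinates are those of the array files (mm9). R 4.3.3 with limma 3.58.1, and Python 3.11.15 with matplotlib 3.10.9, numpy 2.4.6 and pandas 2.3.3 were used. The 9 preset alternatives and 1 added one change the floor, filter, background correction, scaling, source or probe.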

Additional observations from a re-analysis of the deposited data

How the results depend on the processing

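Of 276 values recomputed under 9 preset alternatives and 1 chosen after seeing the data, 238 stayed close (medians and single ratios within 0.0713, the largest median SD between spots, and counts within 1.5 times), and 38 moved. No 2-fold call changed sign, but medians under 2-fold did. The medians here are over members well above background on at least 1 array of the comparison. The median of DT-treated *Prestin*-*hDTR* against DT-treated wild-type mice went from -0.115 to 0.035 with no filter, where the median of all probes was 0.035 too. That of untreated *Prestin*-*hDTR* against untreated wild-type mice went from -0.0192 to 0.0373 by normexp with quantile normalization, 0.0195 by quantile normalization and 0.0501 when scaled to the median of all probes. The cause of a move was not tested, except that a stricter filter leaves fewer genes and a floor raises dim signals. With no filter on dim probes, over all 36 members, the median log2 ratio was -0.058 in DT-treated against untreated wild-type mice and -0.0213, 0.035 and -0.0923 in DT-treated *Prestin*-*hDTR* against untreated *Prestin*-*hDTR*, DT-treated wild-type and untreated wild-type mice. In DT-treated against untreated *Prestin*-*hDTR* mice, the median was -0.29 with no floor and -0.21 over members well above background on both arrays. Against untreated wild-type mice, the median of DT-treated *Prestin*-*hDTR* mice was -0.11 by normexp with quantile normalization and -0.11 by quantile normalization.

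In untreated *Prestin*-*hDTR* against untreated wild-type mice, the count higher by 2-fold was 0 over members well above background on all 4 arrays or on both arrays of the comparison, and the count lower was 0 by normexp with quantile normalization and 1 when scaled to the median or by the mean of all probes of a gene. In DT-treated against untreated *Prestin*-*hDTR* mice, the count lower was 5 with no floor, 1 over members on all 4 or on both arrays, 0 by normexp and 1 by quantile normalization. In DT-treated *Prestin*-*hDTR* against untreated wild-type mice, it was 5 with no floor and 1 by normexp, by quantile normalization or when scaled to the median of all probes. Among single genes, the log2 ratio between DT-treated and untreated *Prestin*-*hDTR* mice lay between -0.89 and -0.80 for *Myl1*, -0.64 and -0.61 for *Tnnt1*, -0.59 and -0.50 for *Mybpc1*, and 0.24 and 0.35 for *Des* under all 10 alternatives. No paired analysis was possible because each group had a single array.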

Other observations

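Other striated and smooth muscle genes were read in the same way. Of 10 smooth muscle genes, 9 were measured, and between DT-treated *Prestin*-*hDTR* and untreated wild-type mice 1 was higher and 8 were lower. The median log2 ratio was -0.32 beside -0.03 for all probes, of which 45.6% were higher. None passed 2-fold, where 1.96% of all probes were higher and 1.95% lower. *Acta2*, smooth muscle actin, had log2 signals of 0.86, 0.70, 0.78 and 0.50 in the order of the arrays and was lowest in DT-treated *Prestin*-*hDTR* mice. Of 10 cardiac genes, 8 were measured and none passed 2-fold in any comparison, where 1.01% to 2.49% of all probes were higher and 1.09% to 2.32% lower. Cardiac actin, *Actc1*, was well above background on 0 arrays. Of 7 genes of tendon and muscle connective tissue, all were measured, and *Kera*, encoding the proteoglycan keratocan, had -2.72, -2.66, -2.72 and -1.59. DT-treated *Prestin*-*hDTR* mice were more than 2-fold above each other array for *Kera*, where 1.41% to 2.49% of all probes were higher by 2-fold.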
